A study of Mus musculus with 8 samples.

Results

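The Zbtb genes were taken as the RefSeq protein-coding genes of mouse whose symbol is Zbtb followed by digits, with any suffix, and 41 of 21887 genes matched. They lie on 15 chromosomes. The family encodes zinc-finger transcription factors with a BTB domain, through which the proteins pair with each other and recruit corepressors such as Ncor1 and Bcor or the ubiquitin ligase subunit Cul3. Their zinc fingers bind DNA, and most of the well-studied members repress transcription, several of them in blood cells, neurons or the germ line. Zbtb8os matches the rule by its symbol alone, being named for its place on the strand opposite Zbtb8a, and it is not a BTB zinc-finger protein.

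The series profiled accessible chromatin with ATAC-seq, which tags DNA that a transposase can reach, in 8 samples of mouse embryonic stem cells forming 4 groups of 2 replicates. Ubc9-depleted cells were v6.5 cells with a TET-OFF genotype, in which doxycycline, given for 72 hours, shuts off Ubc9, the enzyme that joins SUMO to its targets; Ubc9-control cells were of the same line, and the labels give the drug for the depletion only, so drug and depletion cannot be told apart. H1 triple-knockout cells carried the genotype H1.2-/-H1.3-/-H1.4-/- and were set against H1 wild-type cells, both lines taken from an earlier publication, with no number of clones given. All cells had grown in 2i/LIF for 4 passages. The series, by its title, addresses SUMO modification of linker histone H1 and chromatin compaction.

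Each deposited list of open regions pools both replicates of its group. There is therefore 1 list per group and no replicate spread, no test was possible, and every difference below describes lists. The lists held 48730 regions in Ubc9-depleted and 46847 in Ubc9-control cells, and 58039 in H1 triple-knockout and 55489 in H1 wild-type cells. Their read depth is unknown. Each region has the authors' own peak score, read as minus 10 times log10 of the peak p-value. It ranks regions within a list, and percentiles are among all regions of the same list. Scores of different lists are printed side by side below, but a difference between them is no measure of a change in openness. A score of at least 100 also served as a cut in some alternatives. A region was shared when it overlapped a region of the other list of its pair by at least 1 bp. Of 12 stem cell markers, 8 had a region within 1 kb of a gene end in Ubc9-depleted cells and 9 in each of the other 3 lists. Pou5f1, Esrrb and Lin28a had none there in any list, and Utf1 lacked one in depleted cells. Within 1 kb of a RefSeq start, however, Pou5f1 had a region in every list but the triple-knockout one, and Esrrb had one in triple-knockout cells only. Over all protein-coding genes, 54.4% had a gene-end region in Ubc9-depleted, 53.1% in Ubc9-control, 51.4% in triple-knockout and 51.7% in wild-type cells. Of 7 fibroblast markers, 1 had such a region in Ubc9-depleted and 2 in Ubc9-control cells, and 2 each in H1 triple-knockout and wild-type cells. Of 4 primitive endoderm markers, 2 had one in Ubc9-depleted and 3 in Ubc9-control cells, and 2 in triple-knockout and 1 in wild-type cells.

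The promoters below show what the open regions at Zbtb genes cover. They are RefSeq windows of GRCm38.p6 (the mm10 assembly), running from 250 bases before a gene's start to 50 after it, 5′ to 3′ on the gene's strand. Zbtb12 (chr17:34894309-34894608, plus strand), Zbtb17 (chr4:141444423-141444722, plus), Zbtb33 (chrX:38189543-38189842, plus) and Zbtb34 (chr2:33431275-33431574, minus) met a region in Ubc9-depleted but not in Ubc9-control cells. Zbtb39 (chr10:127739280-127739579, plus) met one in H1 triple-knockout but not in H1 wild-type cells. Zbtb5 (chr4:45012363-45012662, minus) is shown as a promoter covered with a high score in all 4 lists, and Zbtb46 (chr2:181424339-181424638, minus) as one that no region met. Capitals mark matches, on either strand, to any of 7 motifs searched. These were the Kaiso site TCCTGCNA, the paired dinucleotide CGCG, the Sp1 core GGGCGG, the CCAAT box, the TATA box written TATAAA, the cAMP response element TGACGTCA and the E-box CACGTG.
Zbtb12: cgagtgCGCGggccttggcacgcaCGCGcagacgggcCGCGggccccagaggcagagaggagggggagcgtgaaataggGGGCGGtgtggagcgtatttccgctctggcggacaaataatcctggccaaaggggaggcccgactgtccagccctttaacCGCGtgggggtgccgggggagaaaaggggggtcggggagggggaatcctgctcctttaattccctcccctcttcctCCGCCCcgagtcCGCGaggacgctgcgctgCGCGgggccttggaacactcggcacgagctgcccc
Zbtb17: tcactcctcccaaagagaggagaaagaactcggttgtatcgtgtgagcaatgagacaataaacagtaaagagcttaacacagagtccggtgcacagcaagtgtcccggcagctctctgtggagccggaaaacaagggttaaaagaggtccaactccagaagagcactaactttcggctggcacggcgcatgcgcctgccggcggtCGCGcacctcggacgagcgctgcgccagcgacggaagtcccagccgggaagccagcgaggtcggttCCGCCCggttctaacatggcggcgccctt
Zbtb33: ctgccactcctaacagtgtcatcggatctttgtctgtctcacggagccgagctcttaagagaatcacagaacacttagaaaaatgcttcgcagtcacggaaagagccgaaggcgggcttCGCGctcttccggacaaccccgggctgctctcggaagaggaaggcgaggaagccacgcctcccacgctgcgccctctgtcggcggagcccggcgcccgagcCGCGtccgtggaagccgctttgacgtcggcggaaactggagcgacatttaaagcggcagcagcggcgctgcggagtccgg
Zbtb34: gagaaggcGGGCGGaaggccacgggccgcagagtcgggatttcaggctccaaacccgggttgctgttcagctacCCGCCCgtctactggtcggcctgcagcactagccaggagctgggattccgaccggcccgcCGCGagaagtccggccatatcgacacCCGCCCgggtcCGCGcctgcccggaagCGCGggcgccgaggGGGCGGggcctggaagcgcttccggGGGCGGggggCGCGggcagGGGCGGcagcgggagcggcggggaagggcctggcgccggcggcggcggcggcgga
Zbtb39: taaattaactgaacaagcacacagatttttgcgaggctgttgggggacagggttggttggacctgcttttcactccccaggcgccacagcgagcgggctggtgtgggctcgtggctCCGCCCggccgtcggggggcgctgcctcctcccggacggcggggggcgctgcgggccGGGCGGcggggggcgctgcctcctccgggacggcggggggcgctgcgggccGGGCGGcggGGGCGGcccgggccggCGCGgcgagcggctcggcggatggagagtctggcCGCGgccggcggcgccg
Zbtb5: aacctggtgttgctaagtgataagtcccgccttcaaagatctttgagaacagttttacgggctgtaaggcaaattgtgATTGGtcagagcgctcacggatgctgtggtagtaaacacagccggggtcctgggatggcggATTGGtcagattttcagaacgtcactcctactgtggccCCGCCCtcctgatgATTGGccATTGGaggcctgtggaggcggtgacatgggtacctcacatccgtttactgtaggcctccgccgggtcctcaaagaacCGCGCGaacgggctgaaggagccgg
Zbtb46: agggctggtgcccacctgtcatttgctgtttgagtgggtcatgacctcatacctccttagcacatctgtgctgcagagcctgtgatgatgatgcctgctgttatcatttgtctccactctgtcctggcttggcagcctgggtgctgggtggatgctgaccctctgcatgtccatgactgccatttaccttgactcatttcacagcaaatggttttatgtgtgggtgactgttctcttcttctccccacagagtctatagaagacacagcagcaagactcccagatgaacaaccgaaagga

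The windows printed for Zbtb12, Zbtb17, Zbtb33, Zbtb34 and Zbtb39 were rich in CG dinucleotides. Zbtb12 held 29, Zbtb17 26, Zbtb33 34, Zbtb34 42 and Zbtb39 42 in 300 bases, against a median of 13 over 21263 windows of all protein-coding genes. The Zbtb5 window held 17 CG and 4 CCAAT boxes, read on the opposite strand as ATTGG. That of Zbtb46, a regulator known from classical dendritic cells, held 1 CG and no searched motif. This printed start lies inside the gene, far from its annotated 5′ end. Just outside the 1 kb limit of that end, Ubc9-depleted cells had a region of score 101, Ubc9-control cells one of 124 and triple-knockout cells one of 87.9.

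At gene ends, defined as 1 kb on each side of both annotated ends, most Zbtb genes were open in all 4 cell populations. Zbtb genes with a region in every list numbered 28, which is 68.3% of the 41, against 43% of all protein-coding genes. There were 6 with a region in no list (14.6%, against 37.8% of all genes), namely Zbtb7a, Zbtb8a, Zbtb8b, Zbtb11, Zbtb38 and Zbtb46. The other 7 differed between lists, and the plot of scores by gene shows which list each of them lacked. The rule of the selection used these regions, so the counts describe the genes. The last region inside the 1 kb limit lay 901 bp from an end of Zbtb4 in Ubc9-depleted cells (score 398), and the first outside lay 1015 bp from an end of Zbtb37 in H1 triple-knockout cells (score 181).

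**Figure D1:**
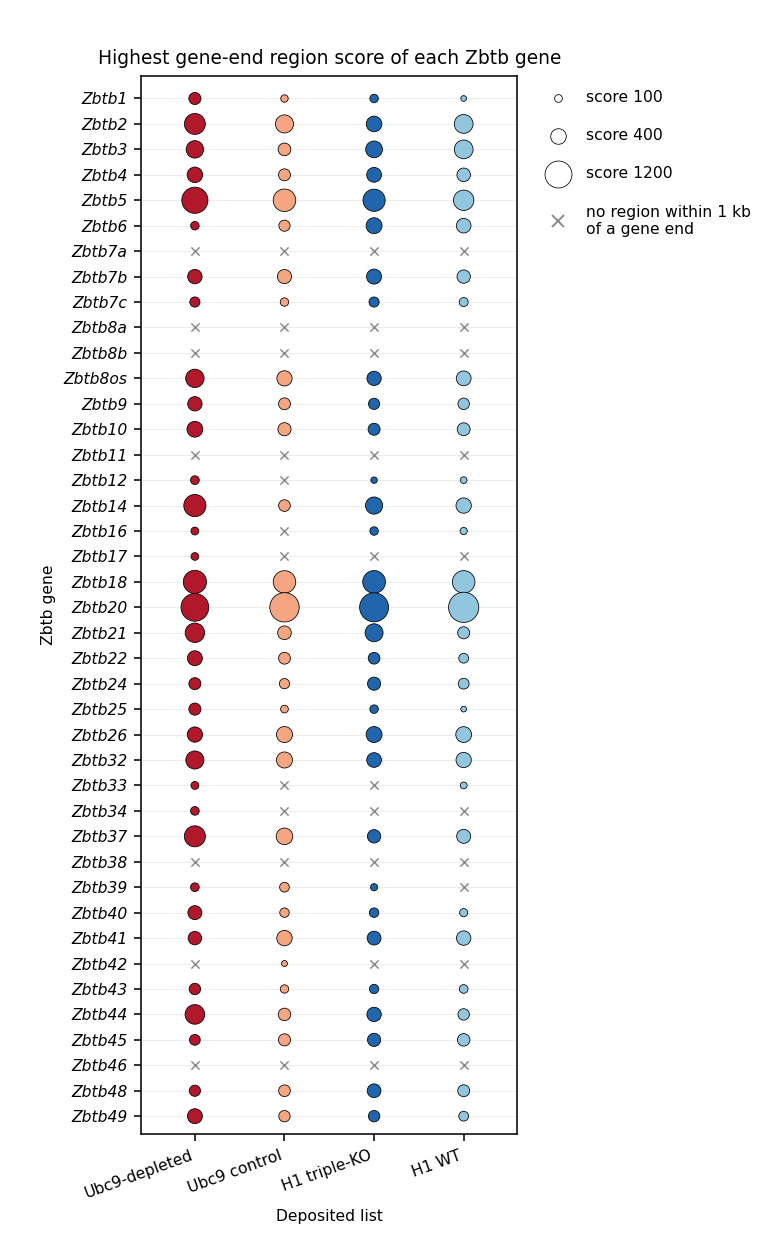
Each row is a Zbtb gene and each column a deposited list; the area of a circle is proportional to the highest score among the gene's regions within 1 kb of a gene end, and a grey cross stands for no such region. Zbtb20 has the largest circle in every column (1273 in Ubc9-depleted, 1425 in Ubc9-control, 1384 in triple-knockout and 1509 in wild-type cells), while Zbtb12, Zbtb16, Zbtb17, Zbtb33 and Zbtb34 have a circle for Ubc9-depleted and a cross for Ubc9-control cells.

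In Ubc9-depleted cells 34 Zbtb genes had a gene-end region, against 30 in Ubc9-control cells. A region was present in depleted cells only at 5 genes, which is 12.2% of the family (exact 95% interval 4.08 to 26.2, covering counting error only) against 5.29% of all protein-coding genes. They were Zbtb12, Zbtb16, Zbtb17, Zbtb33 and Zbtb34. In bulk cells a region open in fewer cells and one less open in each cell cannot be told apart. Zbtb42 alone had one in control cells only, 2.44% of the family against 4.02% of all genes. Counted among the 11 Zbtb genes without a gene-end region in control cells, the same 5 make 45.5% (16.7 to 76.6), against 11.3% of the 10269 such genes in all. Among genes whose symbol is Zfp with digits, 32 had a region in depleted cells only and 67 in neither list. A share above that of all genes was therefore not particular to the Zbtb family. Of the 30 with one in control cells, 1 lacked a region in depleted cells (3.33%, against 7.57% of 11618 genes).

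Zbtb33 encodes Kaiso, which binds methylated CpG as well as an unmethylated site, and lies on chromosome X. Its start carried a region of score 103 in Ubc9-depleted cells (35.9th percentile), from -207 to 128 bp of the start, and none in Ubc9-control cells. In the H1 pair triple-knockout cells had no region there, while wild-type cells had one of score 77.9 from -192 to 60 bp. The same split held at a second site upstream, where depleted cells had a region of score 72.1 from -7882 to -7624 bp and wild-type cells one of score 87.3 from -7874 to -7653 bp, and the other lists had none. Farther upstream a region was present in all 4 lists, with scores of 317 in Ubc9-depleted and 321 in Ubc9-control cells, and of 168 in triple-knockout and 154 in wild-type cells.

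Zbtb12 showed the same distribution at its start. Its region in Ubc9-depleted cells scored 127 (49.5th percentile) and ran from -588 to -63 bp, and Ubc9-control cells had none at either end. H1 triple-knockout cells had none at the start, and H1 wild-type cells had one of score 74.7 from -515 to -185 bp. The region that counts Zbtb12 as open in triple-knockout cells lay at its far end, from 1939 to 2168 bp past the start, with a score of 67.9. Around the starts of the RefSeq promoter table, Zbtb12 and Zbtb33 were therefore both open in wild-type and not in triple-knockout cells.

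Zbtb17 encodes Miz-1, a partner of Myc. Its region in Ubc9-depleted cells scored 98.3 (33.0th percentile) and covered the start from -126 to 501 bp, within 1 kb of a gene end of Gm42337 as well, and no other list had a gene-end region there. Zbtb34 likewise had its region in Ubc9-depleted cells alone, with a score of 124 (47.9th percentile), from -404 to 141 bp of the start. Among the 4 lists, these were the 2 gene-end loci of the family found in depleted cells only.

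Zbtb16 encodes PLZF, needed for natural killer T cells and for spermatogonial stem cells. At its annotated end at the higher coordinate, Ubc9-depleted cells had a region of score 102 (35.3rd percentile) and Ubc9-control cells none. The H1 lists shared a region there, of score 119 in triple-knockout and 85.9 in wild-type cells. At Zbtb16 it was thus the control list of the Ubc9 pair that stood apart from the other 3.

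Zbtb42, a relative of Zbtb18, was the reverse case. Neither Ubc9-depleted nor H1 triple-knockout nor H1 wild-type cells had a gene-end region, and Ubc9-control cells had one of score 58.9 (1.56th percentile), from 119 to 510 bp past the start. That score is near the lowest deposited in the list, 50.3. Its promoter window held 40 CG and was met by no region in any list.

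The 5 regions found in Ubc9-depleted but not in Ubc9-control cells all ranked below the middle of their list. Their percentiles lay between 33.0 and 49.5, whereas the 35 gene-end regions of Zbtb genes in depleted cells had a median percentile of 87.1. With only the top 23423 regions of each Ubc9 list, none of these 5 genes was counted, and Zbtb1, Zbtb7c, Zbtb25 and Zbtb43 had a region in depleted cells only. The maps of the 7 genes show that 4 of the 5 reached or lay near a start.

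**Figure D2:**
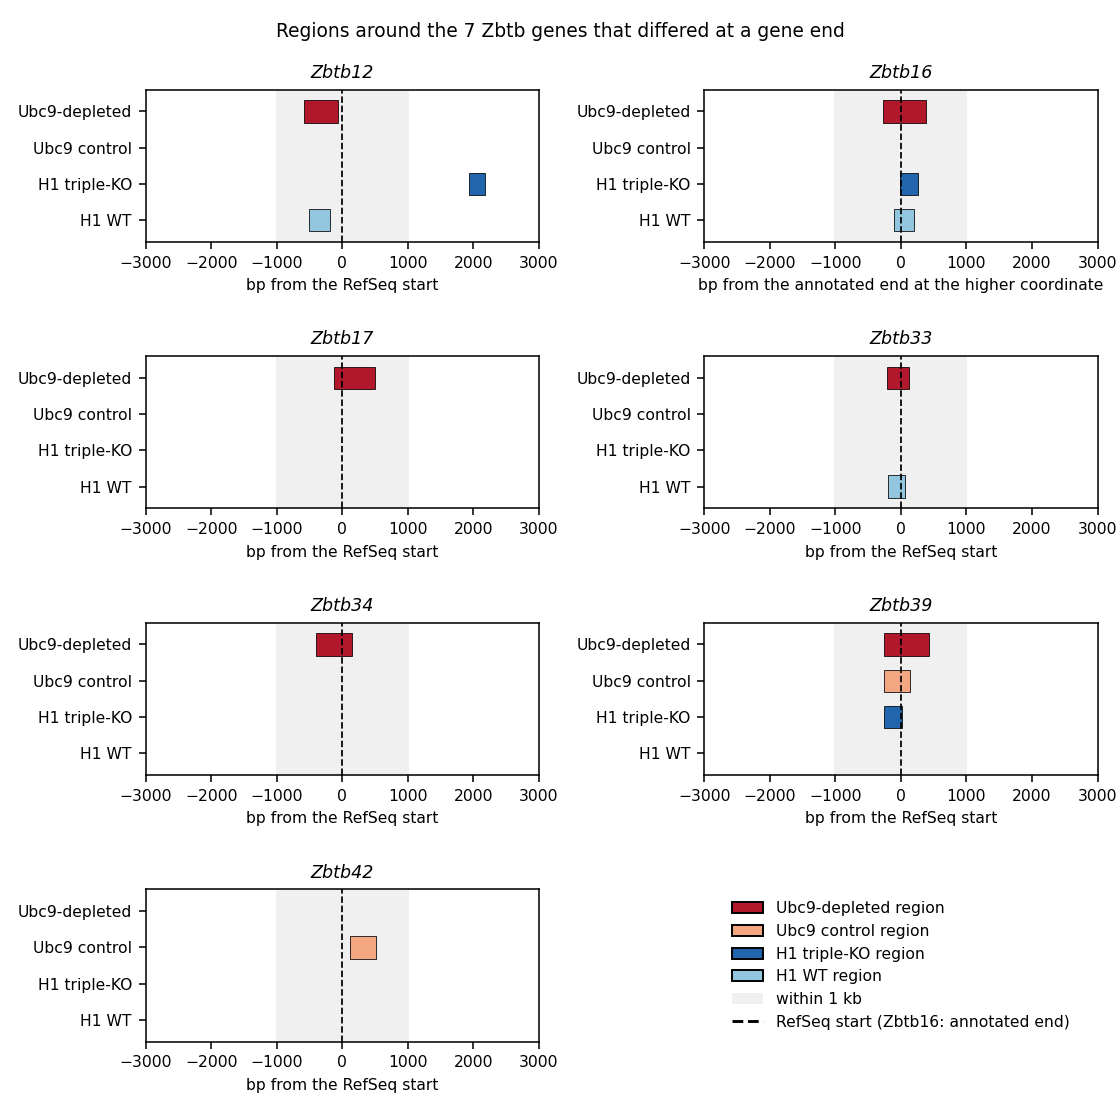
Each panel maps the regions of the 4 lists, as bars, against the distance in bp from the RefSeq start (for Zbtb16 from its annotated end at the higher coordinate); the grey band spans 1 kb on each side and the dashed line marks the start or end. Zbtb17 and Zbtb34 have a bar for Ubc9-depleted cells only, and Zbtb12 and Zbtb33 have a bar at the start for Ubc9-depleted and for H1 wild-type cells.

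In the H1 pair 2 Zbtb genes differed in whether any region lay at a gene end. Triple-knockout and wild-type cells each had gene-end regions at 31 Zbtb genes, 30 of them the same. Zbtb39 had one in triple-knockout cells only (2.44% of the family, against 4.45% of all genes). Zbtb33 had one in wild-type cells only (2.44%, against 4.78% of all genes). Counted among the genes without a wild-type region, Zbtb39 was 1 of 10 (10%, against 9.21% of 10562 genes), and Zbtb33 was 1 of the 31 with a wild-type region (3.23%, against 9.24% of 11325 genes). The region of Zbtb39 scored 84.4 in triple-knockout cells and lay from -253 to 18 bp of the start, and wild-type cells had none at either end. With a score of at least 100, with only the top 27744 regions of each H1 list, or with the wider window tried, Zbtb39 was no longer a gene found in triple-knockout cells only. In the other pair the same start was open in both lists, with a score of 126 in Ubc9-depleted and 156 in Ubc9-control cells.

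Windows around the starts in the RefSeq promoter table, an alternative added after the data were seen, changed which genes counted as open. The table has starts for 36 of the 41 genes, not for Zbtb7c, Zbtb10, Zbtb16, Zbtb40 and Zbtb48. Of the 36, 24 had a region within 1 kb of a start in all 4 lists (66.7%, against 45.2% of 17492 genes) and 5 in none (13.9%, against 37.7%), which were Zbtb4, Zbtb8a, Zbtb20, Zbtb32 and Zbtb46. The only starts listed for Zbtb20, Zbtb32 and Zbtb46 lie inside these genes. That of Zbtb20 lies 370749 bp from the region that Ubc9-depleted cells had at its annotated 5′ end. In this count a region was found in Ubc9-depleted cells only at Zbtb12, Zbtb17, Zbtb33 and Zbtb34 (11.1%, against 4.8%) and in Ubc9-control cells only at Zbtb42 (2.78%, against 3.6%). It was found in triple-knockout cells only at Zbtb39 (2.78%, against 3.8%) and in wild-type cells only at Zbtb12 and Zbtb33 (5.56%, against 4.33%). Zbtb7a, which encodes the lymphoid and globin regulator LRF, had no region at its annotated ends, but 589 bp past its start Ubc9-depleted cells had a region of score 649, and Ubc9-control cells one of 296. The same site scored 314 in triple-knockout and 222 in wild-type cells. Zbtb8b and Zbtb11 likewise had a region near the start in all 4 lists.

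The 3 members that are known to bind methylated CpG differed from each other. Zbtb4 had a gene-end region in all 4 lists, with scores of 398 in Ubc9-depleted and 235 in Ubc9-control cells, and of 363 in triple-knockout and 303 in wild-type cells. That region lay beside its far end, within 1 kb of an end of Chrnb1, and no list had a region at the Zbtb4 start. Zbtb38 had a region at a start in both lists of the Ubc9 pair, of score 84.8 in depleted and 74.1 in control cells, and in neither list of the H1 pair. An internal region of Zbtb38 was present in all 4 lists, with scores of 187 in Ubc9-depleted and 257 in Ubc9-control cells, and of 276 in triple-knockout and 401 in wild-type cells. Zbtb33, described above, completed the group.

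Among 10 regulators of blood and immune lineages, 8 had a gene-end region in Ubc9-depleted and 6 in Ubc9-control cells, the difference being Zbtb16 and Zbtb17. Over all genes 54.4% had one in depleted and 53.1% in control cells. At gene ends the H1 lists had 7 of the 10 each, the same genes in both. Over all genes the shares were 51.4% in triple-knockout and 51.7% in wild-type cells. Around RefSeq starts the counts were 6 in depleted and 5 in control cells of the 9 regulators with a start, and 5 in each H1 list. Over all genes with a start the shares were 55.8% in depleted, 54.6% in control, 52.6% in triple-knockout and 53.1% in wild-type cells. Zbtb7b, the ThPOK factor of CD4 T cells, scored 345 in Ubc9-depleted and 331 in Ubc9-control cells, and 372 in triple-knockout and 295 in wild-type cells, so it was open in all of them. Zbtb32 was counted as open in every list, yet none of its gene-end regions lay within 1 kb of its listed starts, which are inside the gene. In every list a region lay at its far end, within 1 kb of an end of Kmt2b. At its annotated 5′ end, within 1 kb of an end of Upk1a, Ubc9-control cells had a region of score 89.25. The H1 lists shared a region there, of score 62.7 in triple-knockout and 61.8 in wild-type cells, and Ubc9-depleted cells had none.

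Zbtb1, needed for lymphoid development, and Zbtb25 point away from each other. In each Ubc9 list 1 region covered the starts of both, with a score of 242 in Ubc9-depleted and 92.4 in Ubc9-control cells. Triple-knockout cells had a region of score 120 at the Zbtb1 start, 720 bp from the nearest Zbtb25 start. Wild-type cells had separate regions, of score 54.1 near the Zbtb1 start and 51.9 at the Zbtb25 starts. Both scores are near the lowest of that list. At the far end of Zbtb25, Ubc9-control cells had a separate region of score 99.1 that depleted cells lacked.

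The 5 genes of genome and telomere maintenance (Zbtb1, Zbtb10, Zbtb24, Zbtb40 and Zbtb48) each had a gene-end region in every list, as did 68.3% of the family and 43% of all genes; 2 of the 5 have a RefSeq start. Zbtb24, which in human is mutated in an immunodeficiency with unstable centromeric DNA, scored 240 in Ubc9-depleted, 174 in Ubc9-control, 286 in triple-knockout and 195 in wild-type cells. Zbtb48, a telomere-binding protein in human cells, scored 208 in Ubc9-depleted and 226 in Ubc9-control cells, and 312 in triple-knockout and 234 in wild-type cells. Of the 4 genes known from the nervous system, Zbtb18, Zbtb20 and Zbtb45 were open in all lists.

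The same few genes led the ranking in each list. Zbtb20, a regulator of hippocampal neurons and of alpha-fetoprotein in liver, had the highest gene-end score in every list, 1273 in Ubc9-depleted and 1425 in Ubc9-control cells, and 1384 in triple-knockout and 1509 in wild-type cells. Zbtb5 followed in depleted cells (1131) and control cells (840), and it scored 816 in triple-knockout and 686 in wild-type cells. Zbtb18, a repressor needed for cortical neurons, scored 891 in depleted, 834 in control, 852 in triple-knockout and 840 in wild-type cells. The lowest percentile among these values was 98.2, of Zbtb5 in wild-type cells. The other places among the top 5 of a list were held by Zbtb2, Zbtb3, Zbtb14, Zbtb21 and Zbtb37. Zbtb3, which held one in wild-type cells, scored 504 in Ubc9-depleted and 266 in Ubc9-control cells, and 465 in triple-knockout and 581.8 in wild-type cells.

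Over the Zbtb genes open in both lists of a pair, the order moved more in the Ubc9 pair than in the H1 pair. Zbtb14 scored 812 in Ubc9-depleted cells, the 98.9th percentile, and 226 in Ubc9-control cells, the 78.0th percentile. Zbtb44 scored 636 in depleted cells (97.2nd percentile) and 258 in control cells (82.4th). Zbtb6 ran the other way, with 119 in depleted cells (45.6th percentile) and 207 in control cells (74.9th). Single genes moved in the H1 pair too, such as Zbtb21, at the 96.2nd percentile in triple-knockout and the 78.1st in wild-type cells. Over the 29 Zbtb genes open in both lists, Spearman's rho between the scores was 0.76, against 0.76 over 10738 genes, and over the 30 of the H1 pair it was 0.90, against 0.85 over 10279 genes; neighbouring genes can share a region, and these values are descriptions.

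Gene-end regions of the family ranked high within each list. Their median percentile was 87.1 in Ubc9-depleted and 78.9 in Ubc9-control cells, against 77.8 and 72.5 for the gene-end regions of all genes. In triple-knockout cells it was 84.0 and in wild-type cells 78.1, against 71.4 and 69.7 for all genes. The regions of Zbtb genes were also wider, with a median of 742 bp in depleted and 570 bp in control cells, against 666 and 556 bp for all genes.

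Sequence gave a further description of these promoters. The 49 promoter windows of the 36 genes with a start held a median of 25 CG, against 13 in windows of all genes. The 22 windows met by a region in all 4 lists had a median of 24.5, the 13 met in 1 to 3 lists 34, and the 14 met in none 5. For all genes the medians of these classes were 23, 20 and 3. The Zbtb windows of the classes came from 20, 10 and 10 genes, and windows of the same gene can overlap. Those met in none include other starts of Zbtb18 with 1 to 3 CG, while its window of 51 CG was met in all 4 lists. The 7 windows of 6 Zbtb genes met in Ubc9-depleted and not in Ubc9-control cells made up 14.3% of the family's windows, against 5.07% of all windows. They held 26 to 42 CG with a median of 33, against 23 over 1079 such windows of all genes. Beside the 4 genes named above they belong to Zbtb2 and Zbtb38. At Zbtb2, Ubc9-control cells had a region of score 542.5 that overlapped the depleted one but began 748 bp past the start, outside the window. Another Zbtb38 window was met in both lists of the pair. Regions of the whole depleted list were wider (median 431 bp, against 367 bp in the control list), which these window counts do not allow for. No Zbtb window was met in control cells only, and the 660 such windows of all genes, 3.1% of the total, had a median of 10. In the H1 pair 1 window, that of Zbtb39, was met in triple-knockout cells only (2.04%, against 3.59%). The 6 windows met in wild-type cells only (12.2%, against 4.45%) belong to Zbtb12, Zbtb14, Zbtb25, Zbtb33 and Zbtb8os, and held 19 to 56 CG with a median of 39, against 19 over 947 such windows of all genes. Zbtb25 gives 2 of them, which overlap. The other Zbtb14 windows were met in triple-knockout cells by a region of score 487. At Zbtb8os the H1 lists shared a region (score 339 in triple-knockout and 363 in wild-type cells). It covered 24 bases of the window in wild-type and 0 in triple-knockout cells.

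**Figure D3:**
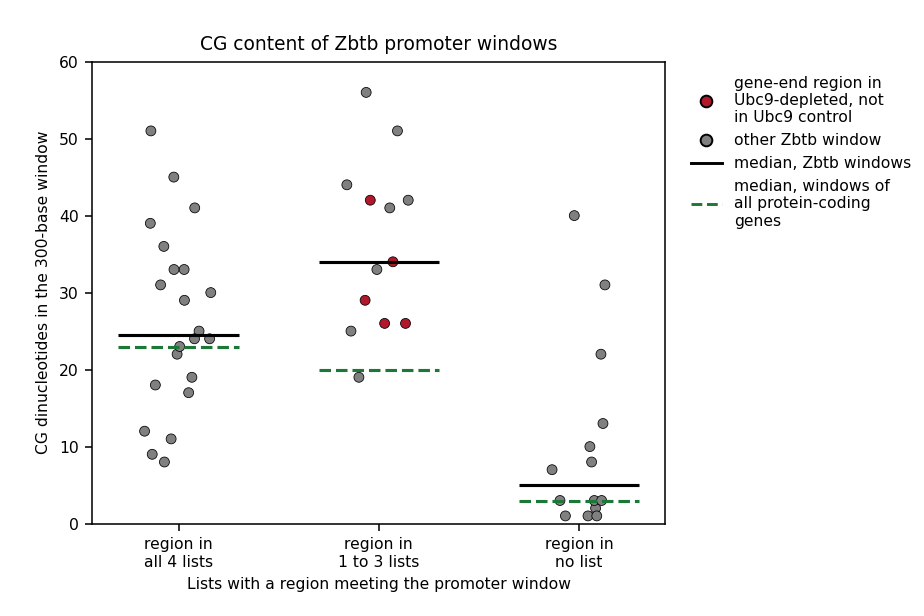
Points are the 49 promoter windows of 36 Zbtb genes; the x axis groups them by the lists with a region meeting the window and the y axis counts CG dinucleotides in 300 bases. Black lines are medians of the Zbtb windows (24.5, 34 and 5) and dashed green lines those of all protein-coding genes (23, 20 and 3); points are spread sideways at random for legibility, and the red points, 26 to 42 CG, are windows of genes with a gene-end region in Ubc9-depleted and not in Ubc9-control cells.

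Among the motifs, CGCG was in 69.4% of the 49 windows, against 49.2% of all windows, and the Sp1 core GGGCGG in 67.3%, against 46.2%. CCAAT was in 30.6%, against 38.2%, and TATAAA in 12.2%, against 12.6%. TCCTGCNA, the unmethylated Kaiso site, was in 4 windows, of Zbtb18 and Zbtb37 (8.16%, against 4.74% of all windows), and not in that of Zbtb33 itself. All of these but that of Zbtb37 are windows of Zbtb18, some of which overlap and hold the same match, so the share counts a site more than once. The cAMP response element TGACGTCA was in the windows of Zbtb11 and Zbtb21, and the E-box CACGTG in 12.2% of the windows, against 7.84%. Matches on both strands were counted, CGCG and GGGCGG can overlap each other, and a match is not evidence of binding.

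Within 50 kb of the 41 genes, counting their bodies, the lists held 197 regions in Ubc9-depleted and 204 in Ubc9-control cells. In depleted cells 55 had no partner in the control list, or 27.9% (21.8 to 34.7), against 38.6% of the regions within 50 kb of any protein-coding gene. In control cells 61 of 204 had none in the depleted list, or 29.9% (23.7 to 36.7), against 41.4%. Regions that lay at a gene end of any gene made up 53.3% of those near Zbtb genes in depleted and 49% in control cells, against 30.2% and 28.7% for all genes. Away from gene ends, 41.3% of the depleted regions were unshared (31.1 to 52.1, against 50.2%), and 48.1% of the control regions (38.2 to 58.1, against 53.3%). At gene ends the shares were not lower in the same way. They were 16.2% in depleted cells (9.72 to 24.7, against 11.9%) and 11% in control cells (5.62 to 18.8, against 11.7%).

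In the H1 pair 280 regions lay within 50 kb in triple-knockout and 235 in wild-type cells. Of the triple-knockout regions 81 had no wild-type partner, or 28.9% (23.7 to 34.6), against 30.4% near all genes. Of the wild-type regions 37 had no triple-knockout partner, or 15.7% (11.3 to 21.0), against 27.1%. Away from gene ends the shares were 40.9% in triple-knockout cells (33.3 to 48.8, against 35.8%) and 20.8% in wild-type cells (14.0 to 29.2, against 31.3%). Among the 41 genes, 26 had more regions unique to triple-knockout cells (63.4%, against 39.9% of all genes), 7 more unique to wild-type cells (17.1%, against 30.7%), and 8 had equal numbers (19.5%, against 29.4%). The triple-knockout list is the longer of its pair, and neighbouring Zbtb genes count some of the same regions. In the Ubc9 pair 12 genes had more regions unique to depleted cells (29.3%, against 36.4%), 16 more unique to control cells (39%, against 38.2%), and 13 had equal numbers (31.7%, against 25.5%).

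**Figure D4:**
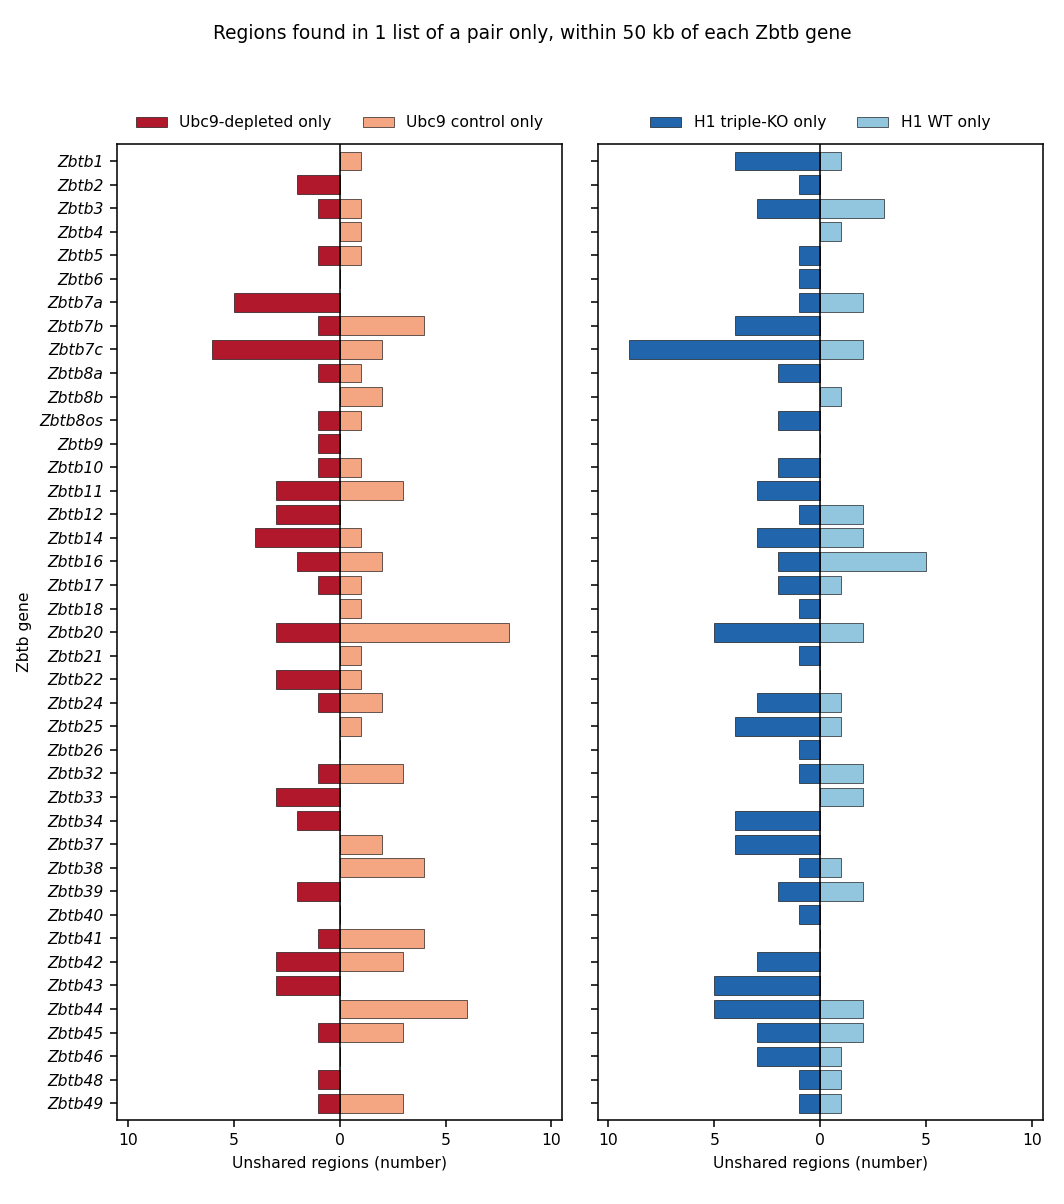
For each Zbtb gene, bars count the regions within 50 kb that are in 1 list of a pair only, to the left in Ubc9-depleted or H1 triple-knockout cells and to the right in Ubc9-control or H1 wild-type cells. Zbtb7c has the longest bars to the left (6 and 9 regions), Zbtb20 (8) and Zbtb44 (6) the longest to the right in the Ubc9 pair, and in the H1 pair 26 genes have the longer bar on the left.

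The genes that leaned most towards Ubc9-depleted cells were Zbtb7a, with 5 regions unique to depleted and 0 to control cells, and Zbtb7c, with 6 and 2. Zbtb12, Zbtb33 and Zbtb43 had 3 unique to depleted and 0 to control cells, and Zbtb14 had 4 and 1. Zbtb34 and Zbtb43 are neighbours and share regions, and the Zbtb34 start region counts for both. Zbtb44 leaned farthest the other way, with 0 regions unique to depleted and 6 to control cells, followed by Zbtb20 with 3 and 8 and by Zbtb38 with 0 and 4. In the H1 pair Zbtb7c had 9 regions unique to triple-knockout and 2 to wild-type cells, and Zbtb43 had 5 and 0. Zbtb16 ran the other way, with 2 unique to triple-knockout and 5 to wild-type cells, as did Zbtb33, with 0 and 2.

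Around Zbtb44, depleted cells lacked several regions that other lists held. Of its 14 loci within 50 kb, 4 were in all lists, 4 were in all but the Ubc9-depleted list, 2 were in Ubc9-control and H1 wild-type cells, and 4 in triple-knockout cells alone. A region inside the gene, 20931 bp past the start, was absent in Ubc9-depleted cells and scored 205 in Ubc9-control cells, and the H1 lists shared it, with 85.8 in triple-knockout and 61.9 in wild-type cells. Zbtb41 was alike, since 4 of its 10 loci were in all lists but the depleted one. One of them, inside the gene, scored 164 in control, 200 in triple-knockout and 113 in wild-type cells.

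Zbtb20 is the longest member, at 759 kb, and most of its regions lay inside the gene. Between its ends Ubc9-depleted cells had 5 regions and Ubc9-control cells 11, of which 2 and 8 were unique. Triple-knockout cells had 14 and wild-type cells 11, of which 5 and 2 were unique. Its end region at the annotated 5′ end, by contrast, was the strongest of the family in all 4 lists. Zbtb7c, also long at 328 kb, had 5 internal regions in Ubc9-depleted and 4 in Ubc9-control cells, 3 and 2 of them unique, and 13 in triple-knockout and 8 in wild-type cells, 6 and 1 of them unique.

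**Figure D5:**
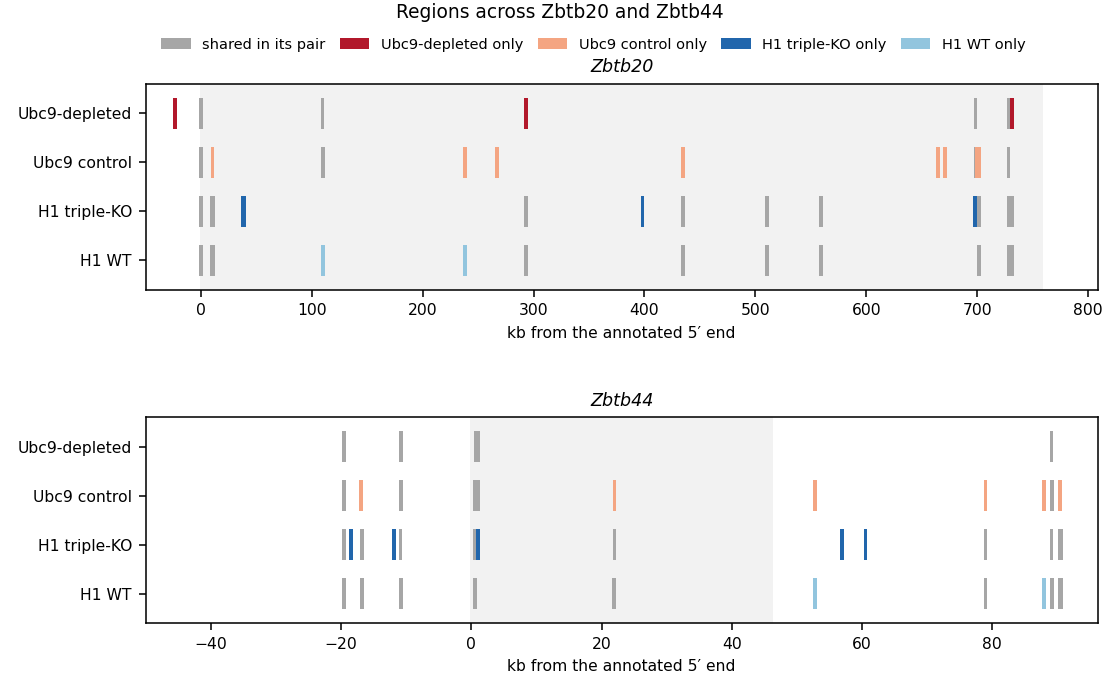
Regions of the 4 lists within 50 kb of Zbtb20 and Zbtb44 are drawn against the distance in kb from the annotated 5′ end, with the gene shaded; grey bars are shared within their pair and coloured bars are in 1 list of the pair only, and narrow regions are widened to stay visible. Inside Zbtb20 the Ubc9-control list has 8 coloured bars and the Ubc9-depleted list 2; around Zbtb44 the Ubc9-control list has 6 and the Ubc9-depleted list 0.

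Merged over the 4 lists, the regions within 50 kb of Zbtb genes formed 354 loci. Of these, 122 were open in all lists, or 34.5%, against 24.7% near all genes. Loci in triple-knockout cells alone numbered 60 (16.9%, against 12.5%), those in Ubc9-depleted cells alone 42 (11.9%, against 15.9%), and those absent in depleted cells only 34 (9.6%, against 10.3%). At the gene ends themselves 28 of 42 loci were in all lists (66.7%, against 60% of 14017 loci).

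Related genes gave a frame for these counts. Of 397 genes whose symbol is Zfp with digits, also zinc-finger proteins, 8.06% had a gene-end region in Ubc9-depleted cells only (all genes 5.29%). In Ubc9-control cells only it was 4.28% (all genes 4.02%), and 64.2% had one in all 4 lists (all genes 43%). Around RefSeq starts 72.2% of Zfp genes had a region in all 4 lists and 6.95% in none, against 66.7% and 13.9% of Zbtb genes. Of 8 BTB zinc-finger genes named otherwise, 6 were open in every list (75%, against 43% of all genes), including Bcl6, the repressor of germinal centre B cells. Bcl6b was open in depleted cells only (score 81.7) and Hic1 was open in control cells but not in depleted cells (score 88.9). Among corepressor genes that BTB domains recruit, Sin3a had a gene-end region in depleted (score 177) but not in control cells, and none in triple-knockout but one in wild-type cells (score 256). Bcor, Hdac4 and Hdac7 had no gene-end region in any list. Around RefSeq starts, however, Sin3a and Hdac4 had a region in all 4 lists. Hdac7 had one there in both lists of the Ubc9 pair and in neither list of the H1 pair, and Bcor had none.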

How the data were processed

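ATAC-seq was run on 8 samples, 2 per group. Per the submitters' processing notes, CASAVA 1.8.2, Bowtie2, Picard and MACS 1.4.2-1 were used with build mm10; tool settings, and whether reads were shifted for the transposase, are not given in the sources used here. The authors deposited 1 list of regions per group, pooling both replicates, each region with a peak score, whose lowest value is 50. How replicates were pooled is not stated and the read depth is unknown. H1 lists hold regions as short as 1 bp, so widths were compared only within a pair or a list.

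Genes came from a RefSeq table for GRCm38.p6, whose 41 Zbtb genes were set against all 21887 protein-coding genes. The table has no strand, so both annotated ends were used, with 1000 bp on each side; the promoter table matched 36 of the 41. Overlaps needed 1 bp. Intervals are exact Clopper-Pearson 95% intervals and cover counting error only. No test was run, since each group is 1 list. Overlap steps, in Python 3.11.15 with numpy 2.4.6, pandas 2.3.3 and scipy 1.17.1, were tested on simulated data. The members, comparison lists, markers and motifs were chosen with earlier results of these data known. Genes named are those that differed at a gene end or lacked a region in some list, the top 5 by score in each list, and those with the largest and smallest differences in unshared regions; others named were chosen after their values were seen. Alternatives were other windows, flanks, overlaps and score limits, equal list lengths, and leaving out chromosomes or genes. Protein sequences were not analysed here. The count over the list of corepressor genes is not reported here.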

Additional observations from a re-analysis of the deposited data

How the results depend on the processing

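No paired analysis was possible because each deposited list pools both replicates of its group. The number of Zbtb genes with a gene-end region in Ubc9-depleted cells only stayed between 4 and 6 over 10 alternatives, and that of genes open in all 4 lists between 22 and 31 over 11. Which genes had a region in depleted cells only changed with list length: among the top 23423 regions of each Ubc9 list (0.5 of the shorter list), the 4 genes were Zbtb1, Zbtb7c, Zbtb25 and Zbtb43, and none of the 5 named above, whose regions ranked at percentiles 33.0 to 49.5 and are removed by that setting. The smaller counts moved. Genes with a region in Ubc9-control cells only numbered 1, and 2 among those top regions, 2 at the 5′ end alone and 0 at a score of at least 100. Those in H1 triple-knockout cells only numbered 1, and 3 at that score (Zbtb1, Zbtb16 and Zbtb25). Zbtb39 was that 1 gene, and its call was lost in 3 alternatives: at that score, among the top 27744 regions, where the 1 gene was Zbtb40, and with the wider window tried, where it was Zbtb46. Those in H1 wild-type cells only numbered 1, and 2 around RefSeq starts, 2 at the 5′ end alone, 0 among the top 27744 regions of each H1 list and 0 at that score.

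At a score of at least 100, unshared regions within 50 kb were 13.8% in Ubc9-depleted cells (all genes 29.6%), 16.9% in Ubc9-control cells (27.2%), 16.7% in H1 triple-knockout cells (18.9%) and 4.85% in H1 wild-type cells (15.9%). The top 23423 regions gave 16.7% in Ubc9-depleted and 23.4% in Ubc9-control cells, and a flank of 10 kb gave 20% in Ubc9-depleted cells. Without chromosomes 3, 6 and 8, the H1 shares were 28.7% in triple-knockout cells (all genes 30.7%) and 16.7% in wild-type cells (26.2%). The unknown depth limits every statement that a region was absent.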
